A study of Mus musculus with 2 samples.

Results

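Extracellular matrix in the mouse olfactory bulb is cut by matrix metalloproteases (Mmp genes) and by ADAMTS proteases (Adamts genes), and both are held in check by the tissue inhibitors of metalloproteases (Timp genes). All non-control probes whose gene name on the array was an Mmp number, an Adamts number or Timp1 to Timp4 were taken, which gave 91 probes for 46 genes (23 Mmp, 19 Adamts and 4 Timp) of 56605 probes under 37074 gene names. Total RNA came from the olfactory bulb of 1 mouse kept under odor-enriched conditions and of 1 mouse kept under standard odor conditions (control), and each RNA was labelled with Cy3 and hybridised to 1 Agilent array. The labels name the tissue as bulb neurons and the source as the bulb, record no cell sorting, and give no strain, sex, age or length of odor exposure. With 1 mouse per group no test between the groups was possible, and no p-value is given. Precision is limited by there being 1 array a group.

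Both protease families are zinc enzymes that cells secrete or anchor at their surface as inactive precursors. Mmp enzymes are grouped by what they cut into collagenases, gelatinases, stromelysins and membrane-type enzymes, and ADAMTS enzymes into hyalectanases (which cut versican, brevican and related proteoglycans), procollagen N-proteinases and others. In the brain they are known for remodelling the matrix around neurons and opening the basement membrane of blood vessels, and in the bulb for acting along the path of newly arriving neurons.

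A value is the log2 of a probe's processed signal minus the array's 75th percentile, and a difference is odor enriched minus control. A gene was measured where at least 1 of its probes was well above background on both arrays, and its value is the mean over those probes. Levels of different probes depend on the probe, so levels were compared only between the arrays. The share of spots well above background was 67.6% on the odor-enriched array and 73.7% on the control array, and no member spot was saturated. Repeat spots of a probe had a pooled SD of 0.05 in the difference, whereas different probes of a gene had a pooled SD of 0.63 over all genes and 0.72 over the 12 members with several measured probes. Neither covers the spread between mice. The 12 measured bulb neuron markers ranged from -1.67 (Slc17a7) to 0.84 (Dcx), and all 12 were well above background on both arrays.

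Of the 46 genes, 34 were measured on both arrays, and 7 of them passed 2-fold, 3 higher and 4 lower in the odor-enriched bulb. The higher genes were Mmp13, Adamts8 and Adamts6, and the lower genes were Adamts2, Mmp8, Mmp17 and Adamts12. The 3 higher genes are 8.82% of those measured, beside 11.5% of all 23872 genes measured, and the 4 lower genes are 11.8%, beside 5.52% of all genes. The other 27 differed by less than 2-fold, and the median over the 34 was -0.08, beside 0.00 over all genes. These counts depended on the scaling: 9 higher and 2 lower with the deposited series matrix values, 2 and 1 after normexp background correction, and 2 and 29 when the arrays were scaled on the E1A spike-in probes, a scaling that shifted the all-gene median by -1.77. A further 11 genes were not well above background on either array, which is 23.9% of the 46, beside 27.1% of all genes.

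**Figure D1:**
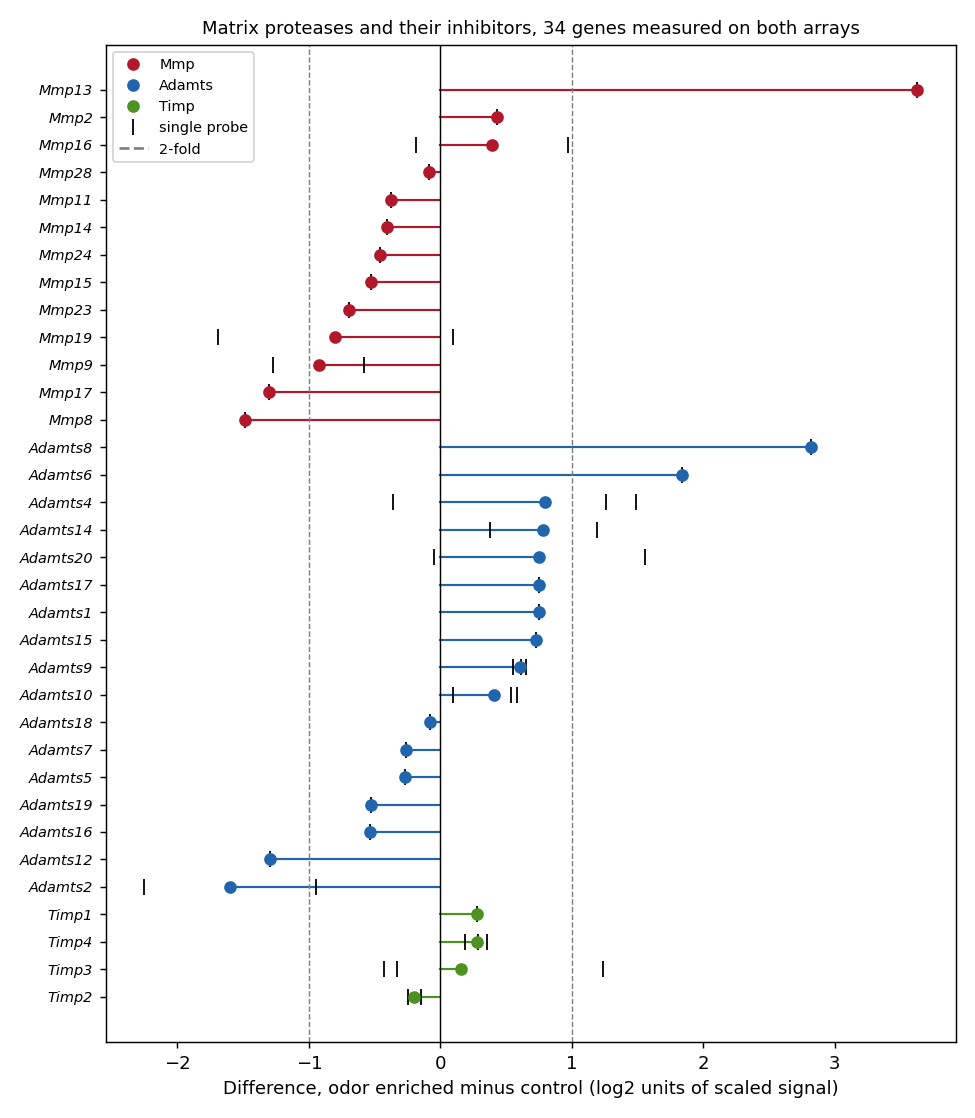
Difference between the odor-enriched and the control array in log2 units (x axis) for each of the 34 measured genes (y axis), grouped by family. Circles are gene means, black ticks are single probes and dashed lines mark 2-fold; Mmp13, Adamts8 and Adamts6 lie beyond the right line and Adamts2, Mmp8, Mmp17 and Adamts12 beyond the left line.

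The collagenases, which cut the triple helix of fibrillar collagen, held the largest positive difference among the members and 1 of the 4 lower genes. Mmp13, the main interstitial collagenase of rodents, had a signal of 77.5 in the odor-enriched bulb, against 7.79 in the control bulb, which is -1.38 and -5.00 on the scaled log2 axis. It was 12.3-fold higher in the odor-enriched bulb (difference 3.63, 1 probe at chromosome 9, 7282762 to 7282821, mm9). The control signal of this probe was near the floor of the array, where the lowest scaled signal well above background was -5.69, and the difference was 1.35 with normexp, whose added offset shrinks the differences of dim probes. Mmp8, the collagenase stored in neutrophil granules, had a signal of 52.1 in the odor-enriched bulb, against 181 in the control bulb. Its difference was -1.49 (2.80-fold lower, probe at chromosome 9, 7567968 to 7568026, mm9), and -0.85 with normexp. Mmp1a and Mmp1b, the mouse counterparts of human interstitial collagenase, were not well above background on either array.

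Mmp13 and Mmp8 belong to a run of neighbouring Mmp genes on chromosome 9, whose probes lie between 7282762 and 7699535 (mm9). Of the 10 members there, 8 were not well above background on either array, while 3 of the other 36 members were not. In order along the chromosome after Mmp13, the genes not well above background were Mmp12 (macrophage elastase), Mmp1b, Mmp3 and Mmp1a, then Mmp10, and, beyond Mmp8, Mmp27, Mmp20 (the enamel protease) and Mmp7 (matrilysin of epithelia and glands). None of these genes was bright enough for its odor-enriched and control signals to be compared, so no direction was read. With the weaker positive-and-significant flag, Mmp10 and Mmp3 were seen on 1 array alone.

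**Figure D2:**
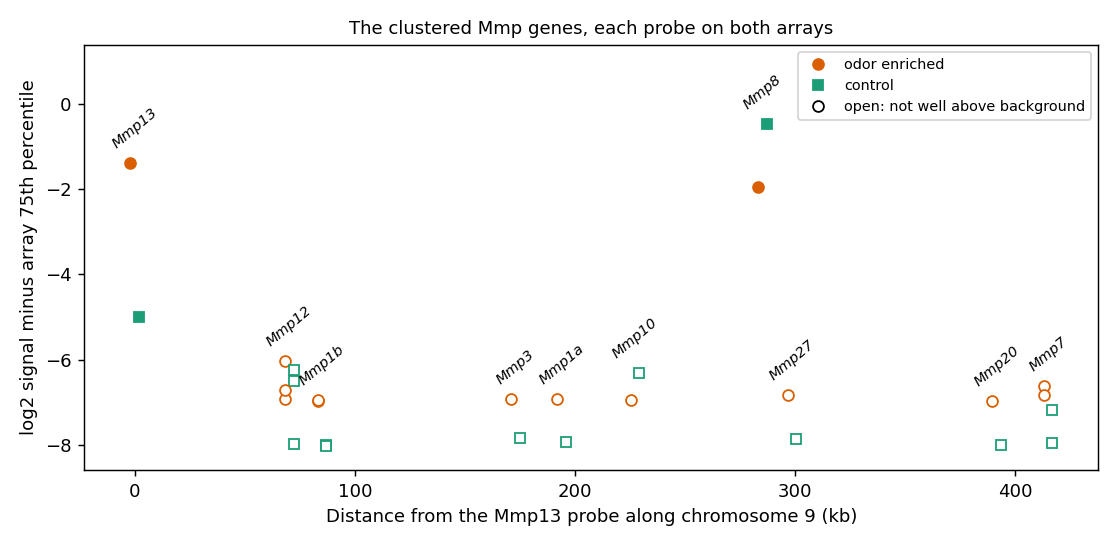
Scaled log2 signal (y axis) of each probe of the 10 clustered Mmp genes on the odor-enriched array (circles) and the control array (squares), by distance from the Mmp13 probe in kb (x axis). Filled symbols are well above background; only Mmp13 and Mmp8 have any, with Mmp13 at -1.38 in the odor-enriched and -5.00 in the control sample and Mmp8 at -1.95 in the odor-enriched and -0.46 in the control sample.

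The promoters of this cluster are shown for a motif that most of them carry near the start site. The motif searched for AP-1, the Fos and Jun dimer, was TGANTCA with any base at N, which reads the same on both strands. It was sought in the 250 bases before each start site (RefSeq sequence, GRCm38.p6). The usual AP-1 letters have C or G at N, so this search was wider than the usual motif. The Mmp20 site has A there. It was present in 8 of the 10 cluster genes, in 0 of the other 22 members with a promoter sequence, and in 6.75% of 32851 promoter windows of the same length. The 8 sites, in capitals with 12 bases on either side, run 5′ to 3′ in the sense of the gene.
Mmp13: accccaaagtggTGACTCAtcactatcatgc
Mmp12: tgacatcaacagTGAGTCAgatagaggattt
Mmp1b: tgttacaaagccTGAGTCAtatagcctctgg
Mmp3: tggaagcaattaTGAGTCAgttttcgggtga
Mmp1a: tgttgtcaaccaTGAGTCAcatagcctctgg
Mmp10: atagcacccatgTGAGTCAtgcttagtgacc
Mmp20: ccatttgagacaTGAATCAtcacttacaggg
Mmp7: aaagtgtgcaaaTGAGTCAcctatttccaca

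The first base of the motif lay 35 bases before the start site in Mmp13 and 95 bases before it in Mmp20, with the other 6 genes between them. Of the 8 genes that carry it, Mmp13 was measured and 7 were not well above background on either array. Its absence from the Mmp8 and Mmp27 windows says only that these letters are not in these 250 bases.

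The 250 bases before the start sites of the 2 measured cluster genes are given next, with AP-1 (TGANTCA), PEA3 (AGGAAG, bound by Ets factors) and Runx (AACCACA) motifs of either strand in capitals, none of which overlap. The Mmp13 window is chr9:7272264-7272513 and the Mmp8 window chr9:7558179-7558428, both on the plus strand of GRCm38.p6.
Mmp13: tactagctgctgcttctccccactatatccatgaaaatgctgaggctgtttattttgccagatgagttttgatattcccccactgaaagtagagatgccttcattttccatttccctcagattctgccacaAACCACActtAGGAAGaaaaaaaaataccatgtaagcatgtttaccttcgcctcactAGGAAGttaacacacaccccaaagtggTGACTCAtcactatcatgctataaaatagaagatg
Mmp8: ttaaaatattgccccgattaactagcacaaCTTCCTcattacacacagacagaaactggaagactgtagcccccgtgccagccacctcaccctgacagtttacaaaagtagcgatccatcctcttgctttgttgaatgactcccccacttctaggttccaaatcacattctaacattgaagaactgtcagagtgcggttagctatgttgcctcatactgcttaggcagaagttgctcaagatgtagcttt

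The Mmp13 window holds all 3 motifs and the Mmp8 window a PEA3 motif alone. PEA3 motifs were common, at 29.5% of all windows and 13 of the 32 members with a sequence, and Runx motifs were in 4.40% of all windows and in Mmp13, Mmp27 and Mmp7. A match describes the letters and is not a measured site.

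The gelatinases, which digest denatured collagen and basement membrane, differed by less than 2-fold. Mmp9, the inducible gelatinase also stored by neutrophils, had 2 measured probes with signals of 28.6 and 21.8 in the odor-enriched bulb, against 85.8 and 40.4 in the control bulb. Both probes were lower, by -1.27 and -0.58, and the gene's difference of -0.93 passed 2-fold with median centring (-1.10), quantile normalization (-1.08), the brightest probe alone (-1.27) and the spike-in scaling (-2.70), and was -0.25 with normexp. The probe at -1.27 spans 164779091 to 164780300 on chromosome 2 (mm9, plus strand), more than its 60 bases, so its target lies in separate blocks of the genome. It is shown as the probe that carries most of the Mmp9 difference.
Mmp9: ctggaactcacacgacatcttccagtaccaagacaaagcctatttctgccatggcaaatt

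Mmp2, the constitutive gelatinase, stood at 0.43, and the median difference of the spots in the patch of the array around its probe was 0.74, the highest such value for any member probe well above background on both arrays.

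Membrane-type enzymes sit on the cell surface, and 4 of the 5 measured were lower, beside 49.9% of all genes measured. Mmp17, which is held by a lipid anchor, had a signal of 159 in the odor-enriched bulb, against 488 in the control bulb, a difference of -1.31 (2.47-fold lower, probe at chromosome 5, 130113835 to 130113894, mm9). Its second probe, at a signal of 3.77 in the odor-enriched bulb (not well above background), against 15.4 in the control bulb, was at least 1.56-fold lower. Mmp17 was the only lower member still past 2-fold with normexp (-1.06), whereas it fell short with the series matrix values (-0.97). Under 2-fold were Mmp15 (-0.53), Mmp24, a neuronal enzyme (-0.46), Mmp14, the activator of Mmp2 (-0.41), and Mmp16 (0.39), whose probes stood at -0.19 and 0.97 and whose brightest probe alone set it negative. Those Mmp16 probes had signals of 30.2 and 17.4 in the odor-enriched bulb, against 42.7 and 11.0 in the control bulb. Mmp25, or leukolysin, an enzyme of leukocytes, had a signal of 5.59 in the odor-enriched bulb, not well above background, against 12.1 in the control bulb, and was at least 1.22-fold lower. It was the only one of the 46 genes seen on 1 array alone, which is 2.17% of them. Of all genes, 7.29% were seen on the control array alone and 1.21% on the odor-enriched array alone.

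The remaining Mmp genes that were measured were all lower in the odor-enriched bulb by less than 2-fold. Mmp19 stood at -0.80 with probes that disagreed: the brighter had a signal of 92.3 in the odor-enriched bulb, against 370 in the control bulb (-1.69), and the dimmer 13.8 in the odor-enriched bulb, against 16.1 in the control bulb (0.09). Mmp23, a short enzyme without the haemopexin domain, stood at -0.70, Mmp11 (stromelysin 3), which furin activates, at -0.37, and Mmp28 (epilysin) at -0.09. Mmp23 turned positive with normexp, and Mmp28 under 3 settings other than the spike-in scaling. Mmp21 was not well above background on either array. Over the 13 measured Mmp genes, 10 were lower and 3 higher, and the median was -0.46. Of all genes measured, 49.9% were lower and 50.1% higher. The Mmp median was negative under all 12 alternatives run, from -2.23 with the spike-in scaling to -0.12 with the series matrix values. These alternatives recompute the same arrays and do not cover the spread between mice.

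Among the hyalectanases, 6 of the 7 measured genes were higher in the odor-enriched bulb (with the spike-in scaling, Adamts8 alone), and 1 of them passed 2-fold. Of all genes measured, 50.1% were higher. Adamts8, an enzyme known for restraining vessel growth, had a signal of 87.1 in the odor-enriched bulb, against 15.3 in the control bulb. It was 7.06-fold higher (difference 2.82, 1 probe at chromosome 9, 30770384 to 30770443, mm9), and 1.32 with normexp. Mmp13 and Adamts8 were the only members at least 2-fold higher under all 12 alternatives run. Close to one another were Adamts1 (0.75), Adamts15 (0.73) and Adamts9 (0.61, with 3 probes from 0.56 to 0.65), which stayed positive under every alternative but the spike-in scaling. Adamts20 (0.75) had probes at -0.05 and 1.55, with signals of 14.8 and 12.5 in the odor-enriched bulb, against 18.9 and 5.29 in the control bulb. The higher probe stood at -5.56 on the control array, near its floor of -5.69, and the brightest probe alone set Adamts20 at -0.05.

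Adamts4, the aggrecanase that cuts brevican in the brain, stood at 0.80 over 3 probes that did not run the same way. Signals of 161 and 82.0 in the odor-enriched bulb stood against 71.4 and 42.5 in the control bulb for the higher probes (1.49 and 1.26), and 71.6 in the odor-enriched bulb stood against 114 in the control bulb for the lower one (-0.36). All 3 lie within the stretch from 173189952 to 173190768 of chromosome 1 (mm9), the lower probe first. Adamts5, the other main aggrecanase, stood at -0.27, and turned positive under 2 settings.

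The procollagen N-proteinases trim the amino end of fibrillar procollagens, and their measured members differed in direction. Adamts2 had signals of 75.3 and 8.68 in the odor-enriched bulb, against 445 and 20.7 in the control bulb. Both probes were lower, at -2.25 and -0.95, for a mean of -1.60 (3.03-fold lower), or -0.79 with normexp. The brighter probe, at chromosome 11, 50617472 to 50617531 (mm9, plus strand), is shown as the most negative of all member probes well above background on both arrays.
Adamts2: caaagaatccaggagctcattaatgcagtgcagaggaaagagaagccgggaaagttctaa

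Adamts14 stood at 0.78 with probes at 0.37 and 1.19. Adamts3 was not well above background on either array.

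Of the other ADAMTS genes, 1 passed 2-fold upward and 1 downward. Adamts6, which acts with Adamts10 on fibrillin microfibrils, had a signal of 14.6 in the odor-enriched bulb, against 5.08 in the control bulb. This is 3.57-fold higher (1.84) and rests on 1 of 3 probes. The others were not well above background on either array. The difference was 0.53 with normexp and 0.06 with the spike-in scaling. Its probe maps from 105077687 to 105084528 on chromosome 13 (mm9, plus strand), again across separate blocks, while the undetected probes lie beyond 105284737.
Adamts6: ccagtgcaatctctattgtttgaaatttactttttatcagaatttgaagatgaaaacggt

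Adamts12, which cuts cartilage oligomeric matrix protein, had a signal of 16.6 in the odor-enriched bulb, against 50.6 in the control bulb (-1.29, 2.45-fold lower, probe at chromosome 15, 11278486 to 11278545, mm9). Its other 2 probes were well above background on the control array alone, at levels under the floor of the odor-enriched array, and give no direction. It was dim on both arrays, and the difference was -0.29 with normexp. Adamts7, which shares that substrate, stood at -0.26, and turned positive under 2 settings. Adamts17 (0.75), Adamts10 (0.41), Adamts18 (-0.08), Adamts19 (-0.53) and Adamts16 (-0.54) were under 2-fold. Leaving aside the spike-in scaling, Adamts17 turned negative with probes seen on either array (-0.45) and with no filter (-0.39), and passed 2-fold with the series matrix values (1.08). Adamts16 and Adamts19 turned positive under 2 settings each and Adamts18 under 3. Adamts13, the von Willebrand factor protease made mainly in liver, was not well above background on either array. The median of the 17 measured Adamts genes was 0.61, from 0.10 to 0.94 under 11 alternatives, and -1.17 with the spike-in scaling.

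**Figure D3:**
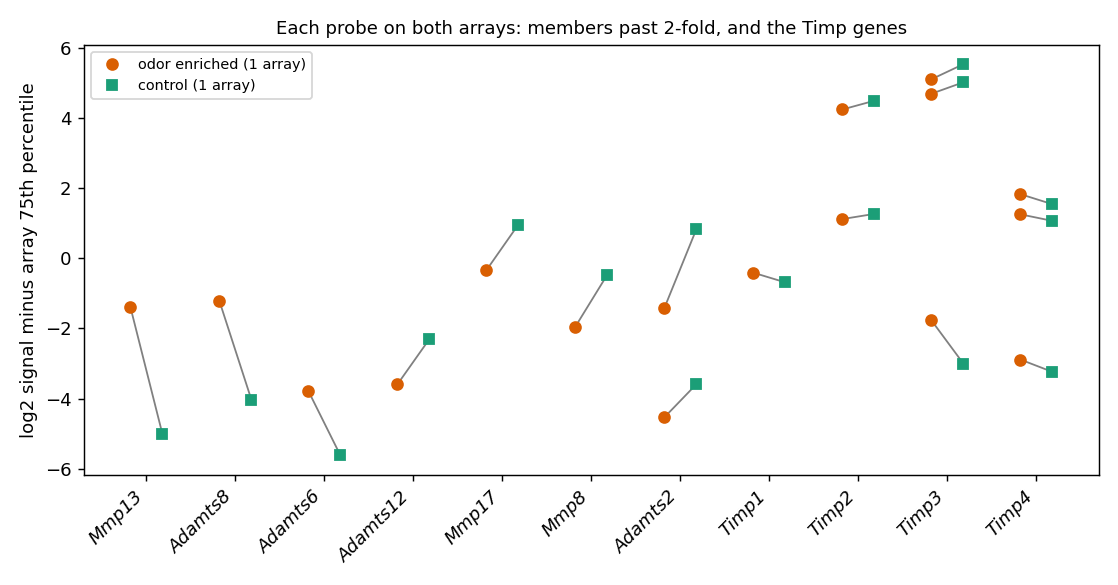
Scaled log2 signal (y axis) of every probe well above background on both arrays, for the 7 members past 2-fold and the 4 Timp genes (x axis). Circles are the odor-enriched array, squares the control array, and lines join the same probe; both Adamts2 probes are lower in the odor-enriched sample, and 1 Timp3 probe runs against the other 2.

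All 4 inhibitors were measured, and none differed by 2-fold. Timp1, the inducible inhibitor, had a signal of 152 in the odor-enriched bulb, against 155 in the control bulb, which became 0.28 after scaling. Timp2, which also assists the activation of Mmp2, had signals of 3827 and 438 in the odor-enriched bulb, against 5644 and 602 in the control bulb (-0.25 and -0.15), while the series matrix values put it at 0.13. Timp4, an inhibitor of brain and heart, stood at 0.28, with 3 probes from 0.19 to 0.35. Its signals were 481, 717 and 27.2 in the odor-enriched bulb, against 524, 729 and 26.5 in the control bulb. These differences of 0.20 to 0.28 in size are within the 0.72 by which probes of the same member differed.

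Timp3, the matrix-bound inhibitor that also blocks ADAMTS enzymes, had probes of opposite sign. At 85811696 to 85812100 on chromosome 10 (mm9), signals were 6952 and 5223 in the odor-enriched bulb, against 11628 and 8133 in the control bulb (-0.43 and -0.33). A dim probe at lower coordinates, 85769407 to 85769466, had 59.2 in the odor-enriched bulb, against 31.2 in the control bulb (1.24). The gene's mean of 0.16 therefore has a sign set by that dim probe, and the brightest probe alone gave -0.43. The median of the Timp genes was 0.22, from 0.01 to 0.55 under 11 alternatives and -1.56 with the spike-in scaling.

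Among the 12 members with several measured probes, 5 had probes of opposite sign (Mmp16, Mmp19, Adamts4, Adamts20 and Timp3), and none had every probe past 2-fold. The other 22 rested on 1 probe. Of the 91 probes, 51 were well above background on both arrays, 12 on the control array alone, 0 on the odor-enriched array alone and 28 on neither. Counted by gene, 7.29% of all genes were seen on the control array alone and 1.21% on the odor-enriched array alone. The floor differed between arrays, with the lowest scaled signal well above background at -4.66 on the odor-enriched array and -5.69 on the control array.

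Genes that act on or with these enzymes were described from lists drawn up with earlier results of these data known, and the signs given here leave out the spike-in scaling. Inducers of metalloprotease genes (cytokines and AP-1, Ets and NF-kappaB factors) had a median of 0.77 (negative with the spike-in scaling), beside 0.00 for all genes. Of the 17 measured, 8 passed 2-fold upward, beside 11.5% of all genes, and 0 downward. They ranged from Jund and Rela (both 0.26) to the AP-1 subunit Fosl2 (2.54) and the cytokine Lif (2.84). The 2 probes of Fosl2 stood far apart, at 0.64 and 4.45. All 17 differences were positive without that scaling, beside 50.1% of all genes measured.

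Activators of latent metalloproteases stood at a median of 0.38, and 3 of 11 were past 2-fold upward and 1 downward. Beside the counts of this list and of those that follow, 11.5% of all genes measured passed 2-fold upward and 5.52% downward. St14 (matriptase, 2.07) and the urokinase receptor Plaur (1.32, and 0.86 with normexp) were highest, and tissue plasminogen activator Plat (-1.83) and the convertase Pcsk7 (-0.75) lowest. Other inhibitors of matrix proteases had 0 of 9 past 2-fold in either direction, from Spock2 (-0.41) and Spock1 (-0.20, which turned positive under 1 setting) to Spock3 (0.62). The membrane ADAM proteases ran from Adam23 (-1.84) and Adam12 (-0.72) to Adam10 (0.91) and Adam15 (1.26), with 1 of 12 past 2-fold each way. ADAMTS-like proteins, which lack the protease domain, ran from Thsd4 (-0.54) and Adamtsl2 (-0.51) to Adamtsl1 (0.37) and Adamtsl3 (1.13). Thsd4 and Adamtsl3 changed sign under 1 and 2 settings. Cell surface partners ran from Sdc4 (-1.54) and Itgb3 (-0.95) to Itgb1 (1.03) and the hyaluronan receptor Cd44 (1.45).

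The substrate lists held genes of either direction. In the basement membrane list 4 of 15 genes passed 2-fold upward and 1 downward, from the nidogens Nid1 (-1.13) and Nid2 (-0.68) to Lama5 (1.73) and fibronectin Fn1 (2.15). Hyalectans and neural matrix genes ran from Ncan (-0.64) and Hapln1 (-0.62) to Acan (0.89) and versican Vcan (1.03, and 0.62 with normexp), the last alone past 2-fold among 9 measured. Another 2 of the 11 in this list were well above background on the control array alone, beside 7.29% of all genes. Fibrillar collagens ran from Col11a1 (-1.19) and Col5a2 (-0.84) to Col3a1 (0.50) and Col1a1 (0.82). The median was 0.20 for basement membrane genes, -0.12 for hyalectans and neural matrix genes and -0.26 for fibrillar collagens, and each changed sign under 1 or 2 settings.

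Markers of several cell types differed between the same arrays, and in bulk RNA fewer cells of a type and less RNA per cell cannot be told apart. Neutrophil markers, beside the lower Mmp8, Mmp9 and Mmp25, were negative for 9 of 10 genes, against 49.9% of all genes measured. Their median was -0.66, from Ltf (-1.57) to Ly6g (3.03). Their summed scaled signal was 112 in the odor-enriched and 173 in the control sample. This and the sums given below are set mostly by the brightest probes of a list, so a sum does not weigh its genes alike. Meningeal fibroblast markers, beside the lower Adamts2 and Adamts12, stood at a median of -0.75, from Fmod (-2.08) to Pdgfra (1.01). Of these 13 markers, 3 were past 2-fold downward and 1 upward, beside 5.52% and 11.5% of all genes measured. Their sums were 36.6 in the odor-enriched and 57.5 in the control sample. Olfactory ensheathing cell markers had 9 of 12 at least 2-fold lower (median -1.21, from Erbb3 at -1.89 to S100b at -0.44, sums 349 in the odor-enriched and 691 in the control sample), and astrocyte markers 3 of 10 (median -0.65, from Gfap at -2.13 to Aqp4 at 0.66, sums 283 in the odor-enriched and 479 in the control sample).

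Beside the higher Mmp13, Adamts8 and Adamts6 stand the 4 marker lists with the highest medians, and lists with smaller positive medians follow after them. With the spike-in scaling the medians of the mural list (-0.22) and the monocyte and macrophage list (-0.91) were negative, and that of the endothelial list was 0.03. Endothelial markers had 10 of 12 at least 2-fold higher (median 1.80, from Cldn5 at 0.71 to Emcn at 3.10, sums 131 in the odor-enriched and 47.2 in the control sample) and mural cell markers 7 of 10 (median 1.55, from Vtn at -0.85 to Kcnj8 at 2.56, sums 79.8 in the odor-enriched and 66.4 in the control sample). Monocyte and macrophage markers had 4 of 10 (median 0.87, from Cd14 at -0.20 to Plac8 at 3.21, sums 171 in the odor-enriched and 54.7 in the control sample) and T and NK cell markers 11 of 12 (median 3.95, from Prf1 at 0.58 to Klrg1 at 6.43, sums 30.6 in the odor-enriched and 2.18 in the control sample). Every marker gene of the 8 lists from neutrophils to T and NK cells was well above background on both arrays, and their part in the protease differences was not tested.

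Oligodendrocyte markers had a median of 0.43, with Opalin at 1.77, and microglia markers a median of 0.00 that changed sign under 5 settings, from P2ry12 (-0.49) to Aif1 (1.09). Markers of tissues outside the bulb were measured in part. Of 10 cartilage and bone markers, a tissue of Mmp13, 6 were measured, from Sp7 (-0.83) to Bglap (1.48), Dmp1 was well above background on the odor-enriched array alone, and Col10a1, Ibsp and Matn1 on neither. Their part in the Mmp13 difference was not tested. Nasal epithelium and gland markers had 7 of 12 measured, from Cdh1 (-1.03) to Krt5 (0.56), with 4 more seen on the control array alone. Skeletal muscle markers had 5 of 8 measured, from Tnnt3 (-0.48) to Acta1 (1.30), with Ckm and Actn3 on neither array. Their median was 0.69 and changed sign under 1 setting.

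**Figure D4:**
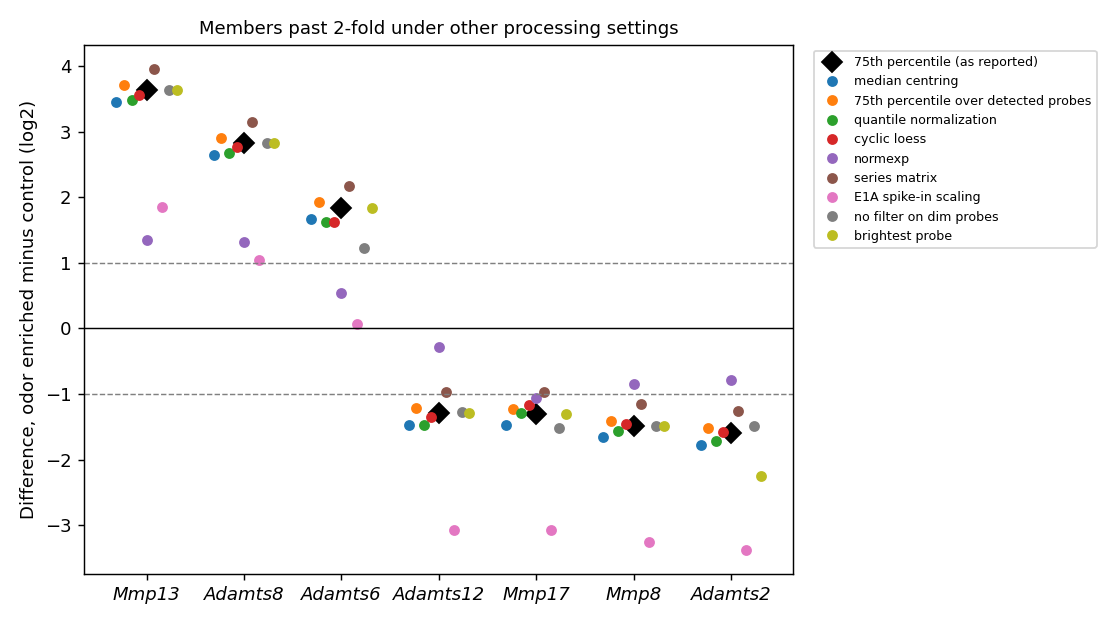
Difference between the odor-enriched and the control array (y axis, log2 units) for the 7 members past 2-fold (x axis), as reported (diamonds) and under 9 other settings (circles). Dashed lines mark 2-fold; Mmp13 and Adamts8 stay above the upper line in every setting, and none of the 7 crosses 0.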

How the data were processed

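Per the file headers, the deposited processed signal is an intensity from Agilent Feature Extraction 11.5.1.1, with background subtracted and spatial trends removed, and with no scaling across arrays. Log2 values in the deposited series matrix are equal, for nearly all probes, to the log2 processed signal minus 1 constant per array of unknown origin, with medians of -8.98 (odor enriched) and -9.48 (control), and served only as an alternative. No member spot was flagged as an outlier. Probe coordinates are those of the files (mm9). Of the 91 member probes, 67 matched a RefSeq accession of GRCm38.p6, all under the same symbol. Of the 46 genes, 32 had a RefSeq promoter.

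The members and lists were chosen with earlier results of these data known. Every member was named, with levels for members past 2-fold, for those with probes of opposite sign and for all Timp genes, 2 genes at each end of pathway lists and 1 at each end of marker lists, except for genes that are not reported here. A gene seen on 1 array has a bound measured from the lowest signal well above background on the other. Steps were tested on simulated data, in Python 3.11.15 with numpy 2.4.6 and pandas 2.3.3, and R 4.3.3 with limma 3.58.1.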

Additional observations from a re-analysis of the deposited data

How the results depend on the processing

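No paired analysis was possible because each group is 1 mouse, and for the same reason leaving out replicates could not be run. None of the 7 members past 2-fold changed sign under any of 12 alternatives. Under the 11 alternatives other than the spike-in scaling, 6 values of these 7 members were no longer past 2-fold. These were Adamts12, Adamts2, Adamts6 and Mmp8 with normexp, and Adamts12 and Mmp17 with the series matrix values. Among the other members, 11 values newly passed 2-fold under those alternatives. Over all measured members, 23 of 374 values changed sign. Scaling on the E1A spike-in probes, which were brighter by 1.46 log2 units (median of 8 probes) in the odor-enriched than in the control sample, left 29 members at least 2-fold lower, with medians of -1.85 over all members, -2.23 for Mmp, -1.17 for Adamts and -1.56 for Timp genes. Members at least 2-fold higher numbered 9 with the series matrix values and 8 with no filter on dim probes (which admits probes at the floor). Those at least 2-fold lower numbered 2 with the series matrix values and 1 with normexp. At a threshold of 1.5-fold, 10 members were higher and 7 lower, and at 3-fold 3 were higher and 1 lower. The share of all genes at those other thresholds was not computed, so these counts have nothing to stand beside. The median over all members turned positive with normexp (0.13), the series matrix values (0.25) and no filter (0.27). With the positive-and-significant flag 3 members were seen on 1 array alone, Adamts13, Mmp10 and Mmp3. The median of all genes moved by -0.17 with median centring, 0.33 with the series matrix values and 0.21 with no filter. Among all genes measured, 2747 were at least 2-fold higher and 1317 lower, 2136 and 2061 with median centring, 4466 and 582 with the series matrix values, 1256 and 622 with normexp, 370 and 20043 with the spike-in scaling and 9379 and 2294 with no filter. The low signal of Mmp13 and Adamts6 on the control array limits how large a fold can be read. Keeping outlier spots and leaving out bright patches, which held no member probe, left both member counts as they were.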
